A study of Mus musculus with 23 samples.

Results

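The miR-183, miR-96 and miR-182 cluster is a group of 3 neighbouring miRNA genes on mouse chromosome 6, and each hairpin gives a 5p and a 3p mature arm. Its 6 mature miRNAs were taken by name from the table of 1218 mature miRNAs counted in liver, and all 6 were listed there. Small RNA was sequenced from the liver of 23 male C57bl/6J mice of the third generation of breeding, 1 library per mouse. The reference group (n = 8) came from the control lineage, whose growing diet held high oleic sunflower oil, and received a low-fat diet. The HFoleic group (n = 8) came from the same control lineage and received a high-fat, high-sucrose diet. The HFepa group (n = 7) came from the omega 3 lineage, bred on a fish oil rich in eicosapentaenoic acid (EPA), and received that same high-fat, high-sucrose diet. HFoleic and reference thus differed in diet, HFepa and HFoleic in lineage, and HFepa and reference in both. No group combined the omega 3 lineage with the low-fat diet, and the age of the mice was not given in the sources used here.

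A miRNA is a short RNA that guides the Argonaute protein to messenger RNAs, mostly through its seed, which is bases 2 to 8 counted from the 5′ end. The 3 hairpins of this cluster are known to be processed from 1 common primary transcript, which is abundant in sensory organs and in several epithelia. In the liver the locus is known as a transcriptional target of SREBP-2, the transcription factor that raises cholesterol synthesis and uptake. Known targets of its miRNAs include the mRNAs of FBXW7, which promotes the breakdown of nuclear SREBP, INSIG2, which retains the SREBP precursor in the endoplasmic reticulum, and the transcription factor FOXO1. The question put to the data was how the members were expressed in these livers, how they varied together, and whether their levels or their balance differed between the 3 groups.

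In RefSeq on GRCm38.p6 the hairpins lay on the minus strand, Mir183 at chr6:30169668-30169737, Mir96 at chr6:30169446-30169551 and Mir182 at chr6:30165918-30165992. Mir183 and Mir96 were 116 bp apart, Mir96 and Mir182 were 3453 bp apart, and none overlapped another annotated gene. The nearest genes, Rncr4 and Nrf1, were both on the plus strand, at distances of 3155 bp and 12459 bp. The 3 arms that carried nearly all counts of the cluster and the 3p arm that was counted in most libraries are shown 5′ to 3′, with the seed in capitals, because the results below turn on them.
mmu-miR-183-5p: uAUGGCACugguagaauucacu
mmu-miR-96-5p: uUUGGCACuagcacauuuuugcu
mmu-miR-182-5p: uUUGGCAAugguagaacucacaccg
mmu-miR-183-3p: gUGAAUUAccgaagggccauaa
No members shared a whole seed. With positions counted from 1 at the 5′ end, the seed of miR-96-5p differed from that of miR-183-5p by A2U alone, and the seed of miR-182-5p differed from that of miR-96-5p by C8A alone. Outside the seed, miR-182-5p was closer to miR-183-5p, with 13 of 15 compared positions identical, than to miR-96-5p, with 6 of 16. The only other listed mouse miRNA with the seed of miR-96-5p was miR-1271-5p, which had 1 count over all libraries.

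The library totals ranged from 3725432 to 8139344 counts. Levels are given as CPM, the counts of a miRNA scaled to a fixed library total, after normalization by edgeR's TMM method, as mean ± SD over mice. The 386 miRNAs that passed the filter on low counts were tested in edgeR, and a miRNA was called different where its absolute log2 fold change exceeded 0.25 and its quasi-likelihood p, adjusted by Benjamini-Hochberg over those 386, was under 0.05. The labels number the reference libraries 1 to 8, HFoleic 9 to 15 and 23, and HFepa 16 to 22. An effect tied to the library number therefore cannot be told apart from the group in HFepa vs. reference. Reference library 3 stood apart in markers of other liver cells. Its summed level of 6 miRNAs of biliary epithelium was 1112 CPM, against at most 288.7 CPM in the other reference libraries, at most 340.9 CPM in HFoleic and at most 270.1 CPM in HFepa. The same library had the highest summed level of 6 leukocyte miRNAs (3556 CPM) and the lowest summed level of 5 hepatocyte miRNAs of its group (191141 CPM). Reference library 5 stood apart in miR-375-3p, an islet and endocrine miRNA, with 2020 CPM against at most 57.3 CPM in the rest of its group.

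The cluster was expressed in every liver, and miR-182-5p made up nearly all of it. Of the 6 members, miR-182-5p ranked 43 of 1218 by mean CPM, miR-183-5p 148, miR-96-5p 265 and miR-183-3p 418. In the reference group, miR-182-5p held 96.1% ± 0.245 of the counts of the cluster (n = 8), miR-183-5p 3.49% ± 0.245 and miR-96-5p 0.325% ± 0.0931. These are shares of sequenced reads, and ligation differs between small RNAs of different sequence, so the order of members within a library is not an order of molecules per cell. The 3 members with 5p arms passed the filter on low counts and the 3 with 3p arms did not.

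The most abundant member, mmu-miR-182-5p, spanned 1243 to 3150 CPM in the reference group, with a median of 1706 CPM and a mean of 1811 ± 586.4 (n = 8). In HFoleic it spanned 543.3 to 2004 CPM, with a median of 1531 CPM and a mean of 1359 ± 569.8 (n = 8). In HFepa it spanned 758.5 to 2480 CPM, with a median of 1484 CPM and a mean of 1572 ± 637.1 (n = 7). The highest level of all belonged to reference library 3 and the lowest to HFoleic library 11, and the 3 groups overlapped. Without library 3 the reference mean was 1619 ± 243.5 CPM (n = 7), and its other livers then lay inside the range of HFoleic and of HFepa.

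The level of mmu-miR-183-5p, encoded at the other end of the cluster, spanned 43.6 to 123 CPM in the reference group, with a median of 64.8 CPM and a mean of 66.4 ± 24.8. In HFoleic it spanned 22.8 to 130.5 CPM, with a median of 57.7 CPM and a mean of 69.9 ± 40.3. In HFepa it spanned 20.8 to 129 CPM, with a median of 84.0 CPM and a mean of 78.2 ± 41.2. Both high-fat groups reached lower and higher levels than any reference liver. Without library 3 the reference mean was 58.2 ± 10.2 CPM.

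The rarest 5p arm, mmu-miR-96-5p, spanned 3.02 to 12.2 CPM in the reference group, with a median of 5.44 CPM and a mean of 6.16 ± 2.79. In HFoleic it spanned 2.03 to 23.7 CPM, with a median of 9.10 CPM and a mean of 10.2 ± 7.86. In HFepa it spanned 3.81 to 22.1 CPM, with a median of 8.04 CPM and a mean of 11.2 ± 7.03. Some livers of both high-fat groups exceeded every reference liver, while others lay among or below them. Without library 3 the reference mean was 5.31 ± 1.49 CPM. The plot of CPM by group shows each of these libraries.

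**Figure D1:**
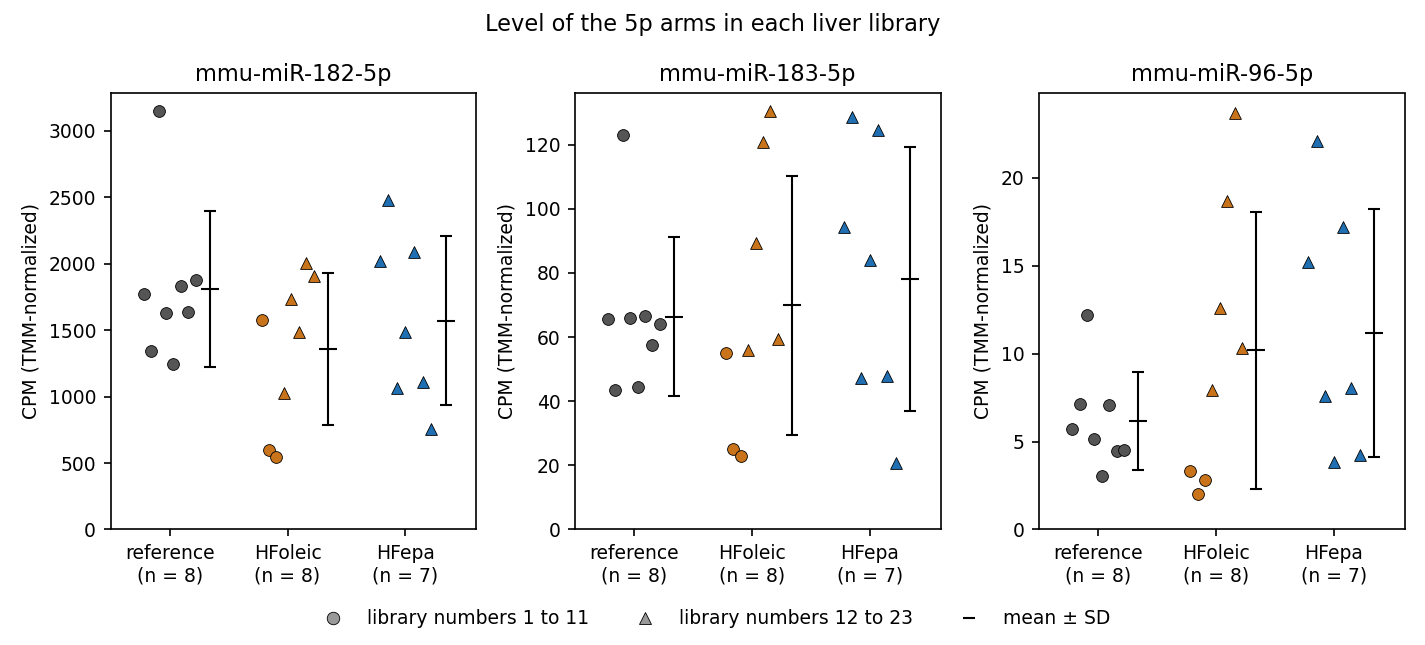
Level of miR-182-5p, miR-183-5p and miR-96-5p in each liver, in TMM-normalized CPM on linear axes, by group (reference n = 8, HFoleic n = 8, HFepa n = 7), with bars for mean ± SD. Circles are libraries numbered 1 to 11 and triangles those numbered 12 to 23; the groups overlap for each miRNA, 1 reference library is the highest of its group in all 3 panels, and the 3 HFoleic circles lie at the low end of their group for miR-183-5p and miR-96-5p.

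Pooled over the 3 groups, the members varied more between mice of 1 group than most liver miRNAs. The SD of log2 CPM within groups was 0.61 for miR-182-5p, 0.80 for miR-183-5p and 0.96 for miR-96-5p, against a median of 0.33 over the 386 tested miRNAs (quartiles 0.21 and 0.48). That placed miR-182-5p above 85.2% of them, miR-183-5p above 90.4% and miR-96-5p above 92.5%. Counting error alone came to 0.678% to 1.76% of the count for miR-182-5p, 3.43% to 10.7% for miR-183-5p and 10.0% to 26.7% for miR-96-5p, depending on the library. The spread between libraries includes their preparation as well as the mice, which cannot be told apart with 1 library per mouse. Without reference library 3 the SDs were 0.59, 0.79 and 0.95 in the same order, against a median of 0.30. These SDs pool the groups, and the 7 other reference livers were less spread than the high-fat livers. In CPM their SD was 243.5 for miR-182-5p, against 569.8 in HFoleic and 637.1 in HFepa. For miR-183-5p it was 10.2 against 40.3 and 41.2, and for miR-96-5p 1.49 against 7.86 and 7.03. The rank of these spreads within the reference group alone was not computed.

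The 3p arms were near the limit of detection. The 3p arm of miR-183, mmu-miR-183-3p, had 153 counts over all libraries, between 0 and 26 in each, and was counted in 21 of 23. Its mean level was 1.73 ± 1.02 CPM in reference livers (0.33 to 3.77, median 1.48), 0.637 ± 0.702 CPM in HFoleic (0 to 1.83, median 0.393) and 1.21 ± 1.10 CPM in HFepa (0 to 3.17, median 0.714). The groups overlapped, and a count of 0 allows up to 3 counts, which is 0.36 to 0.788 CPM depending on the library. In HFoleic vs. reference the mean was 1.10 CPM lower (exact permutation test, two-sided, p = 0.0219, adjusted p = 0.0657 over 3 comparisons), and in HFepa vs. reference the exact permutation p was 0.366. Without reference library 3 its mean was 0.805 CPM lower in HFoleic (adjusted p = 0.131, exact permutation test), and the difference passed the threshold without reference library 7 (-1.30 CPM, adjusted p = 0.0214) and without HFoleic libraries 12 (-1.24 CPM, adjusted p = 0.0308) or 13 (-1.27 CPM, adjusted p = 0.027). It made up 2.56% ± 1.19 of the counts of miR-183 in reference livers, against 0.918% ± 0.999 in HFoleic and 1.84% ± 2.15 in HFepa. The 3p arm of miR-96, mmu-miR-96-3p, had 3 counts in 2 HFepa libraries and that of miR-182, mmu-miR-182-3p, had 2 counts in all, so no comparison of either was possible at this depth.

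In HFoleic vs. reference, which asks about the diet within the control lineage, 0 of the 3 tested members were called, beside 12.4% of all tested miRNAs (48 of 386). That background itself fell to 3.12% without reference library 5 (12 of 385), to 0.259% with a term for the library number (1 of 386) and to 0 of 409 within libraries 1 to 11. The log2 fold change of miR-182-5p was -0.41 (SE 0.28, 95% confidence interval -0.99 to 0.16, adjusted p = 0.332 by edgeR's quasi-likelihood test). That of miR-183-5p was 0.07 (SE 0.36, interval -0.68 to 0.82, adjusted p = 0.928), and that of miR-96-5p was 0.70 (SE 0.46, interval -0.25 to 1.65, adjusted p = 0.324). None had an unadjusted p under 0.05, against 110 of the 386. Without reference library 3 the values were -0.25 for miR-182-5p, 0.26 for miR-183-5p and 0.92 for miR-96-5p, all uncalled, and without reference library 5 that of miR-183-5p was -0.02. The intervals leave room for a fall of miR-182-5p and a rise of miR-96-5p of the sizes seen, so the members are not shown to be equal between the groups.

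In HFepa vs. reference, where diet and lineage both differed, 0 of 3 members were called, beside 15.8% of all tested miRNAs (61 of 386), a share that was 9.35% without reference library 5 (36 of 385) and 0.0% with the library-number term. The log2 fold change was -0.20 for miR-182-5p (SE 0.29, interval -0.80 to 0.39, adjusted p = 0.718, edgeR's quasi-likelihood test) and 0.24 for miR-183-5p (SE 0.38, interval -0.54 to 1.01, adjusted p = 0.734). For miR-96-5p it was 0.85 (SE 0.47, interval -0.13 to 1.83, adjusted p = 0.249). Without reference library 3 the value of miR-182-5p was -0.04, that of miR-183-5p 0.43 and that of miR-96-5p 1.07. Both comparisons use the same reference livers, so their like values are not separate observations.

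In HFepa vs. HFoleic, which asks about the lineage under the high-fat diet, 0 of 3 members were called, beside 0.0% of all tested miRNAs, of which 22 had an unadjusted p under 0.05. The log2 fold changes were 0.21 for miR-182-5p (interval -0.38 to 0.80), 0.16 for miR-183-5p (interval -0.61 to 0.94) and 0.15 for miR-96-5p (interval -0.83 to 1.12), each with an adjusted p of 0.968 by edgeR's quasi-likelihood test. Median levels of HFepa were lower than those of HFoleic for miR-182-5p and miR-96-5p and higher for miR-183-5p. In each case the difference was well inside the spread between mice.

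The study names a test of pooled reads (DEGseq), whose error comes from the reads rather than from the mice. With its formula on counts pooled within groups, at an unadjusted p under 0.01 and the same fold threshold, 2 of 3 members were called in HFoleic vs. reference, beside 35.0% of all tested miRNAs, and 2 of 3 in HFepa vs. reference, beside 37.0%. In both, miR-182-5p was lower (log2 fold changes of -0.58 and -0.29) and miR-96-5p higher (0.49 and 0.77), while miR-183-5p was at -0.13 and 0.14. In HFepa vs. HFoleic 3 of 3 were called, beside 13.0%, all higher in HFepa (0.29, 0.28 and 0.27 for miR-182-5p, miR-96-5p and miR-183-5p). Since the livers of a group are summed, these values describe the pools of reads and not the spread between mice.

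**Figure D2:**
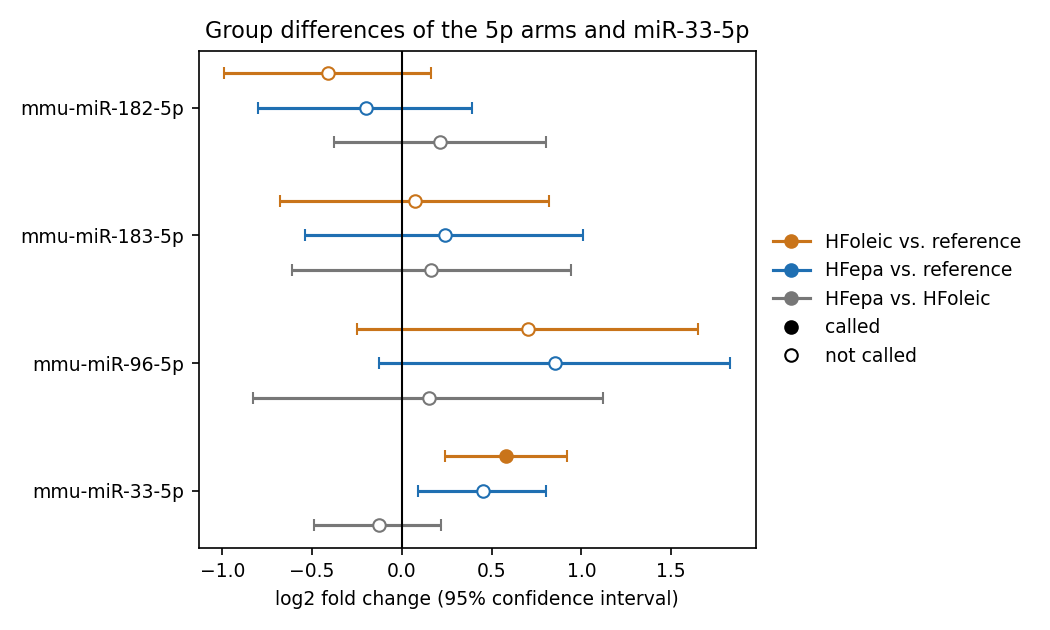
Log2 fold change (x axis) of the 3 tested members and of miR-33-5p in the 3 comparisons, with 95% confidence intervals from edgeR's quasi-likelihood fit; filled points passed the threshold for a call. The interval of each member spans 0 in each comparison, and the only filled point is miR-33-5p in HFoleic vs. reference, at 0.58.

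The HFoleic group is the only one with library numbers in both sets, and its livers differed by that number. In HFoleic libraries 9 to 11, miR-183-5p lay between 22.8 and 55.1 CPM and miR-96-5p between 2.03 and 3.32 CPM. In the 5 HFoleic libraries numbered 12 to 23, miR-183-5p lay between 56.0 and 130.5 CPM and miR-96-5p between 7.95 and 23.7 CPM. For miR-182-5p the 2 sets overlapped, at 543.3 to 1577 CPM and 1026 to 2004 CPM. For miR-183-5p they nearly met, at 55.1 CPM in library 9 and 56.0 CPM in library 12, with counting errors of 5.63% and 5.74%. For miR-96-5p the ranges were apart. How many of all tested miRNAs split by library number in this way was not counted. The labels do not say what the number stands for, and its part in the results was not tested as a cause.

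For miR-183-5p and miR-96-5p the direction of the differences from reference depended on whether the library number entered the fit. The fold change of miR-182-5p against reference was negative either way. Within libraries 1 to 11, the 3 HFoleic livers had lower fitted levels than the 8 reference livers for every tested member, with log2 fold changes of -0.98 for miR-182-5p (SE 0.36), -0.93 for miR-183-5p (SE 0.35) and -1.17 for miR-96-5p (SE 0.38). Their unadjusted p-values by edgeR's quasi-likelihood test were 0.0203, 0.0233 and 0.0108. After adjustment over the 409 miRNAs tested in that set none was called, with adjusted p-values of 0.591 to 0.662, and 28 of the 409 had an unadjusted p under 0.05. HFoleic library 9 lay inside the reference range for all 3 arms, at 1577, 55.1 and 3.32 CPM, and libraries 10 and 11 lay below it. Reference library 3, the highest of its group in all 3 arms, was kept, and no fit of libraries 1 to 11 without it was run. Within libraries 12 to 23, HFepa vs. HFoleic gave -0.05 for miR-182-5p, -0.22 for miR-183-5p and -0.38 for miR-96-5p, none of them called. A term for the 2 sets of library numbers was then added to the fit of all 23 livers. With it, HFepa vs. reference was at -1.05, -1.17 and -1.57 for the same 3 miRNAs, with adjusted p-values of 0.723 (edgeR's quasi-likelihood test). There miR-183-5p and miR-96-5p changed sign and miR-182-5p did not. That term rests on the 8 HFoleic livers alone, since the other groups lie wholly in 1 set.

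The 3 arms rose and fell together from liver to liver. Over the 23 livers, log2 CPM of miR-183-5p and miR-182-5p had a Pearson r of 0.875 and a Spearman rho of 0.841 (permutation test, p = 1e-05 for both, the smallest that 100000 permutations give). For miR-183-5p and miR-96-5p r was 0.80 and rho 0.759 (permutation p = 1e-05 and 8e-05). For miR-96-5p and miR-182-5p r was 0.645 and rho 0.642 (permutation p = 0.00075 and 0.00118). Whether r differed between pairs was not tested, and miR-96-5p had the fewest counts of the 3 arms. Adjusted over the 3 pairs by Benjamini-Hochberg, the p-values were 1e-05, 1e-05 and 0.00075 for r and 3e-05, 0.00012 and 0.00118 for rho. All 3 miRNAs were counted in the same libraries and share their depth and normalization.

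Leaving out the 2 livers farthest from the median gave r = 0.813 for miR-183-5p and miR-182-5p, 0.812 for miR-183-5p and miR-96-5p and 0.561 for miR-96-5p and miR-182-5p. Within the groups, r of miR-183-5p and miR-182-5p was 0.981 in reference, 0.873 in HFoleic and 0.972 in HFepa. For miR-183-5p and miR-96-5p it was 0.728, 0.934 and 0.723, and for miR-96-5p and miR-182-5p 0.767, 0.777 and 0.812. The relations were also positive within each set of library numbers, with r of 0.986, 0.825 and 0.819 in libraries 1 to 11 and 0.869, 0.787 and 0.759 in libraries 12 to 23, in the same order of pairs. In the reference group those with miR-96-5p rested on library 3. Without it, over 7 livers, r fell to 0.275 with miR-183-5p and 0.372 with miR-182-5p, while miR-183-5p and miR-182-5p still had r = 0.933. Spearman rho was lower than r in the reference group. It was 0.738 for miR-183-5p and miR-182-5p, 0.476 for miR-183-5p and miR-96-5p and 0.452 for miR-96-5p and miR-182-5p. Without library 3 the rho values were 0.607, 0.214 and 0.179.

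**Figure D3:**
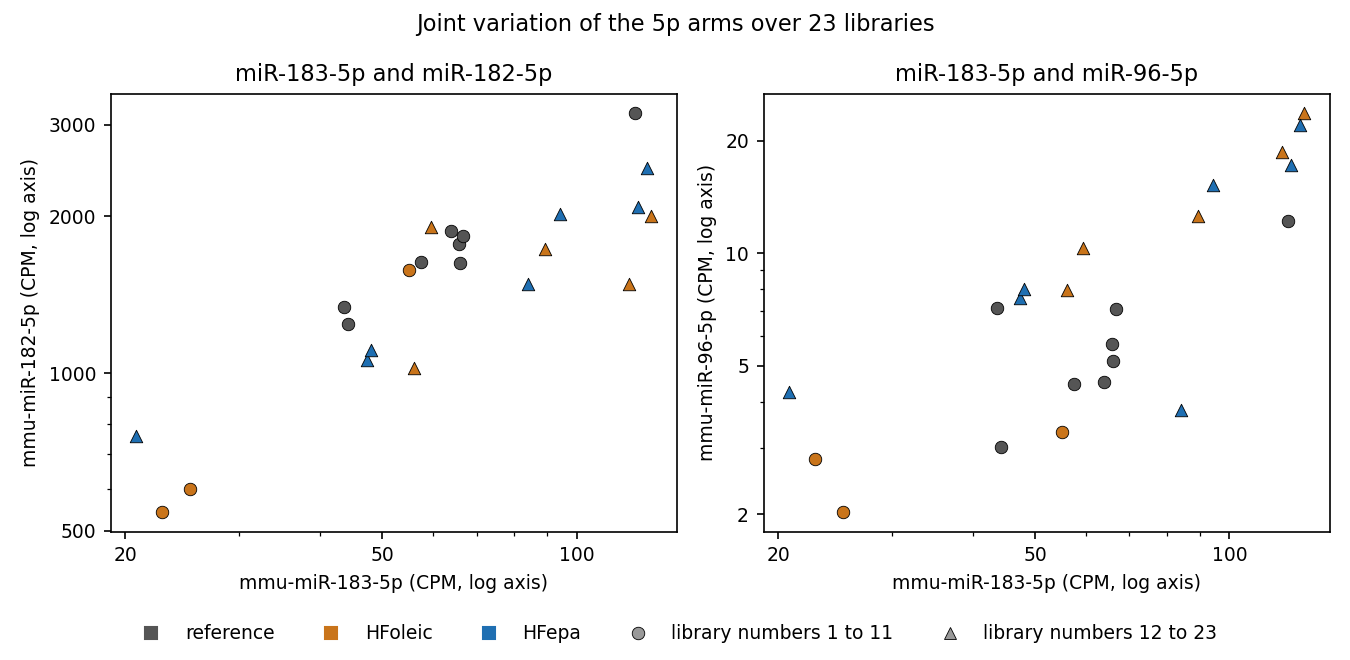
Level of miR-182-5p (left) and of miR-96-5p (right) against miR-183-5p in 23 livers, in CPM on log axes, coloured by group, with circles for libraries numbered 1 to 11 and triangles for 12 to 23. Both pairs rise together, with r of 0.875 on the left and 0.80 on the right, and in the left panel most triangles lie below circles of a like miR-183-5p level.

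The balance between the arms was measured as the ratio of their counts within a library, which does not depend on normalization. The ratio of miR-182-5p to miR-96-5p was 187.8 to 414.1 in the reference group with a median of 312.6. It was 79.6 to 474.6 in HFoleic with a median of 161.7 and 112.4 to 389.9 in HFepa with a median of 138.2. All but 1 HFepa liver lay below the lowest reference liver, and the exception, library 19, brought the groups to overlap. The mean log2 ratio was 0.96 lower in HFepa than in reference (SE 0.26; exact permutation test, two-sided, p = 0.00528, adjusted p = 0.0476 over 9 tests), a ratio 1.94-fold lower. The call was near the threshold and held in 3 of the 15 tests that left out 1 liver of these groups. It was lost without any 1 of reference libraries 1, 3, 4, 5, 6, 7 and 8 or HFepa libraries 16, 17, 18, 20 and 21, when the adjusted p ranged from 0.0629 to 0.0892 and the difference from -0.99 to -0.88. In HFoleic vs. reference the mean log2 ratio was 0.88 lower (SE 0.33, exact permutation p = 0.0219, adjusted p = 0.0622), and without HFoleic library 9 it was 1.09 lower with an adjusted p of 0.0238 in the exact permutation test. That difference passed in 1 of the 16 tests that left out 1 liver of these 2 groups.

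The ratio of miR-182-5p to miR-183-5p was narrow in the reference group, at 24.6 to 30.8 with a median of 27.8. It was 12.3 to 32.1 in HFoleic with a median of 21.6 and 16.8 to 36.5 in HFepa with a median of 21.5. Most high-fat livers lay below all reference livers, but HFoleic library 23 and HFepa library 22 lay above all of them. The mean log2 ratio was 0.41 lower in HFoleic (SE 0.17, exact permutation p = 0.0258) and 0.34 lower in HFepa (SE 0.14, exact permutation p = 0.0277), each with an adjusted p of 0.0622. Of the tests that left out 1 liver of the compared groups, 2 of 16 passed for the first difference and 1 of 15 for the second. With 1 liver left out, the adjusted p was up to 0.109 and 0.126 (exact permutation test). Without library 23 the first difference was -0.50 (adjusted p = 0.0238, exact permutation test), and without library 22 the second was -0.47 (adjusted p = 0.00599). Without HFoleic library 9 the first was -0.48 (adjusted p = 0.0315). The second compares no HFoleic liver and stayed at -0.34. Its adjusted p then moved to 0.0498 only because the adjustment spans all 9 tests.

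The ratio of miR-96-5p to miR-183-5p was 0.0682 to 0.164 in the reference group with a median of 0.0826. It was 0.0603 to 0.181 in HFoleic with a median of 0.141 and 0.0453 to 0.205 in HFepa with a median of 0.162. Its mean log2 value was 0.47 higher in HFoleic (SE 0.24, exact permutation p = 0.0749, adjusted p = 0.112) and 0.61 higher in HFepa (SE 0.31, exact permutation p = 0.0606, adjusted p = 0.109) than in reference. Of the tests that left out 1 liver of the compared groups, 1 of 16 passed for the first difference and 1 of 15 for the second. With 1 liver left out, the adjusted p was up to 0.202 and 0.186 (exact permutation test). Without HFoleic library 9 the first difference was 0.61 (adjusted p = 0.0315), and without HFepa library 19 the second was 0.88 (adjusted p = 0.012, exact permutation test). In HFepa vs. HFoleic the mean log2 ratios differed by -0.08 for miR-182-5p over miR-96-5p, 0.07 for miR-182-5p over miR-183-5p and 0.15 for miR-96-5p over miR-183-5p, with exact permutation p-values of 0.843, 0.767 and 0.676.

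Inside the HFoleic group the ratios with miR-96-5p differed by library number. Its libraries 9 to 11 had miR-182-5p over miR-96-5p at 193.3 to 474.6, and its libraries numbered 12 to 23 had 79.6 to 185.7. The ratio of miR-96-5p to miR-183-5p was 0.0603 to 0.123 in the first set and 0.141 to 0.181 in the second. How often ratios of other miRNAs split in this way was not counted. That of miR-182-5p to miR-183-5p overlapped, at 23.8 to 28.6 and 12.3 to 32.1. Within libraries 1 to 11, HFoleic differed from reference by -0.05 in the mean log2 ratio of miR-182-5p over miR-96-5p. It differed by -0.13 in that of miR-182-5p over miR-183-5p and by -0.08 in that of miR-96-5p over miR-183-5p. All livers of both groups had given differences of -0.88, -0.41 and 0.47. Over all groups the median ratio of miR-182-5p to miR-96-5p was 309.6 in libraries 1 to 11 and 135.3 in libraries 12 to 23. For miR-182-5p to miR-183-5p the medians of these sets were 27.5 and 19.3, and for miR-96-5p to miR-183-5p 0.0805 and 0.161. The difference between HFepa and reference in each of the 3 ratios cannot be told apart from the library number.

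**Figure D4:**
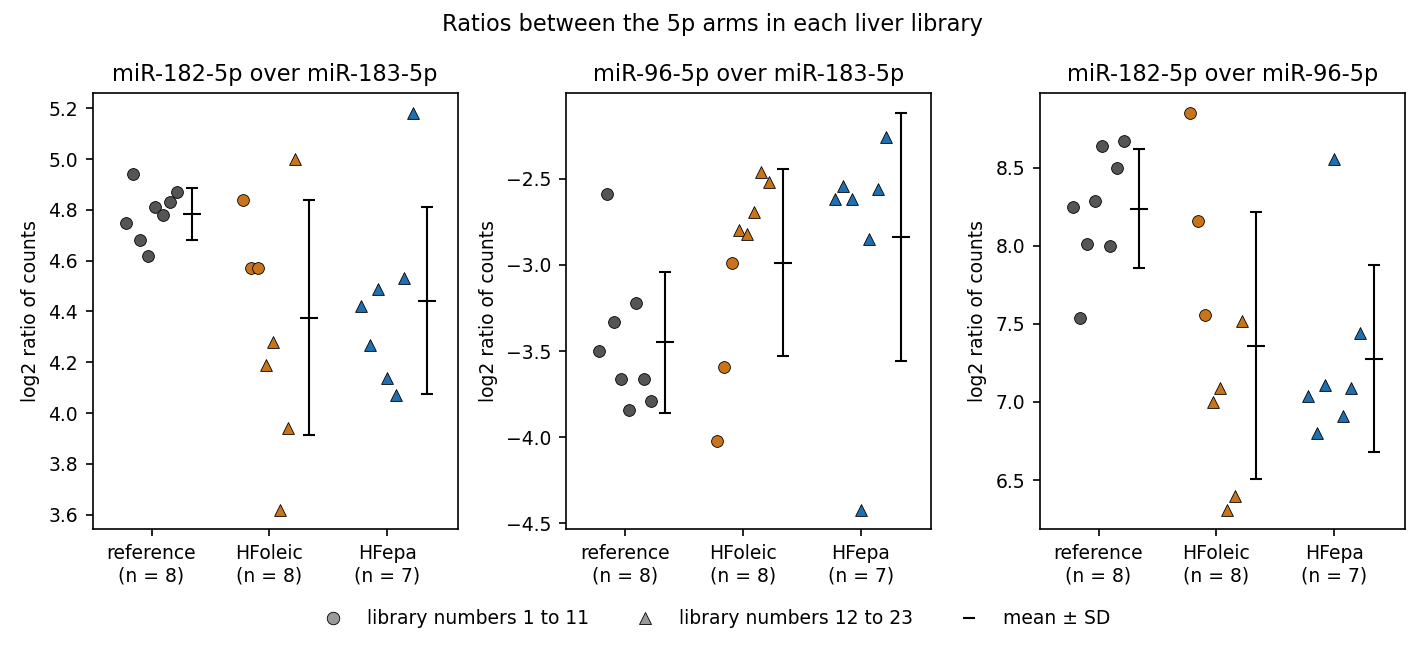
Log2 ratio of counts (y axes) between the 5p arms in each liver, by group (reference n = 8, HFoleic n = 8, HFepa n = 7), with bars for mean ± SD; circles are libraries numbered 1 to 11 and triangles those numbered 12 to 23. In the right panel the HFoleic circles lie within or above the range of the reference livers and the HFoleic triangles among the HFepa livers or below them.

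The gene Srebf2, which encodes SREBP-2, holds miR-33 in an intron, and miR-33 is known to repress the cholesterol exporter ABCA1. The level of miR-33-5p was 7.42 ± 2.04 CPM in reference (3.53 to 10.6, median 7.38), 11.1 ± 1.61 CPM in HFoleic (9.69 to 14.6, median 10.7) and 10.1 ± 2.25 CPM in HFepa (7.08 to 13.6, median 9.86). All 8 HFoleic livers lay above the reference median, although the groups overlapped. It rose in HFoleic vs. reference with a log2 fold change of 0.58 (SE 0.17, adjusted p = 0.0278, edgeR's quasi-likelihood test), and in HFepa vs. reference the value was 0.45 (SE 0.17, adjusted p = 0.0758). The call was lost without reference library 5, at 0.46 (adjusted p = 0.0631), without HFoleic library 14, at 0.60 (adjusted p = 0.0522), and without HFoleic library 23, at 0.52 (adjusted p = 0.056). It was also lost with the library-number term, at 0.54 (SE 0.22, adjusted p = 0.415), and within libraries 1 to 11, at 0.55 (SE 0.25, adjusted p = 0.662), so its direction, unlike that of miR-183-5p and miR-96-5p, was the same there. Its other arm, miR-33-3p, was at 4.66 ± 1.56, 5.15 ± 1.52 and 4.66 ± 1.06 CPM and was not called in any comparison.

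Of 19 miRNAs listed for roles in sterol and lipid metabolism, 18 were in the table and 17 were tested. In HFoleic vs. reference 1 was higher, miR-33-5p, and 1 was lower, miR-128-3p, which is 2 of 17 beside 12.4% of all tested miRNAs, and the median log2 fold change of the list was 0.02. In HFepa vs. reference 0 were higher and 2 were lower, miR-128-3p and miR-10b-5p, again 2 of 17, beside 15.8% of all tested miRNAs, with a median of -0.01 beside -0.06 over all of them. Without reference library 5 the list had 0 calls in HFoleic vs. reference and 1 in HFepa vs. reference, and with the library-number term it had 0 in both. None was called in HFepa vs. HFoleic. The level of miR-128-3p, known to target ABCA1 and the LDL receptor, was 45.1 ± 3.87 CPM in reference, 32.2 ± 8.39 CPM in HFoleic and 29.1 ± 6.60 CPM in HFepa. It fell by 0.49 on the log2 scale in HFoleic (SE 0.14, adjusted p = 0.0311) and by 0.63 in HFepa (SE 0.15, adjusted p = 0.00872, edgeR's quasi-likelihood test). The first call held in 15 of 23 fits without 1 liver (adjusted p of 0.0222 to 0.0682; it was lost without reference libraries 1, 4 or 5 or HFoleic libraries 12, 13, 14, 15 or 23) and the second in 23 of 23. With the library-number term neither held, at -0.12 (SE 0.15, adjusted p = 0.818) and 0.01 (SE 0.20, adjusted p = 1.0), and within libraries 1 to 11 HFoleic vs. reference gave -0.11 (SE 0.10, adjusted p = 0.703). The call of miR-10b-5p held in 6 of 23 fits without 1 liver, with adjusted p-values of 0.0362 to 0.704. Its size came from reference library 5, at 20240 CPM against at most 1980 CPM in the rest of its group, and its log2 fold change went from -2.36 to -0.36 without that library (adjusted p = 0.704).

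Among the other 383 tested miRNAs, those most like the cluster were found by the Pearson correlation of their log2 CPM with the mean log2 CPM of the 3 members, after subtracting group means. Over 23 livers the highest r belonged to miR-145a-3p (0.809), followed by miR-191-5p (0.762), miR-100-5p (0.746), miR-148b-3p (0.741) and miR-501-3p (0.700). The median r of the 383 was 0.012 and 30 of them exceeded 0.5. Without reference library 3 the 5 values were 0.798, 0.741, 0.752, 0.718 and 0.697. In the same order, r was 0.76, 0.671, 0.767, 0.741 and 0.591 within reference. It was 0.877, 0.807, 0.871, 0.84 and 0.838 within HFoleic and 0.726, 0.808, 0.563, 0.575 and 0.468 within HFepa. Subtracting group means does not remove the difference by library number inside HFoleic. These were picked as the highest of many, so no test is attached to them. Mean levels of miR-100-5p were 208.8, 855.6 and 922.2 CPM in reference, HFoleic and HFepa, and those of miR-501-3p were 10.3, 63.6 and 71.3 CPM. Single livers spanned 172.5 to 1856 CPM and 7.81 to 145.8 CPM. The means were 83.2, 116.0 and 127.3 CPM for miR-145a-3p and 6658, 7601 and 7700 CPM for miR-191-5p. For miR-148b-3p they were 884.0, 1010 and 961.8 CPM. No test between groups and no check by library number is given for these levels.

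Markers of other cells were set beside the cluster because a whole liver holds several cell types, and fewer cells of a type cannot be told apart from less RNA per cell. The summed level of the 6 miRNAs of biliary epithelium, of which none was at 0, was 153.1 to 1112 CPM in reference, 159.1 to 340.9 CPM in HFoleic and 193.6 to 270.1 CPM in HFepa. Its defining miRNA, miR-200b-3p, was at 435.2 CPM in reference library 3 and at 54.8 to 130.6 CPM in all other livers, and library 3 also had the highest miR-182-5p of all livers and the highest miR-183-5p and miR-96-5p of its group. From this list HFoleic vs. reference called 0 of 6, beside 12.4% of all tested miRNAs. HFepa vs. reference called 1 of 6, miR-429-3p, which was lower, beside 15.8% of all tested miRNAs. Without reference library 3 that call was lost, and miR-141-3p of the same list was called higher in HFoleic vs. reference. The summed level of the 6 leukocyte miRNAs was 1760 to 3556 CPM in reference, 1533 to 2439 CPM in HFoleic and 1543 to 2445 CPM in HFepa. Of these 6, 1 was called, miR-150-5p, lower in both high-fat groups than in reference, beside the same shares of all tested miRNAs. That call was lost in both with the library-number term. The part of these cells in the levels of the cluster was not tested.

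Calls in 2 of the remaining lists involved single reference libraries. Of 3 tested pancreatic and endocrine miRNAs 2, miR-375-3p and miR-184-3p, were lower in both high-fat groups, beside 12.4% and 15.8% of all tested miRNAs called, and their summed level was 34.6 to 2066 CPM in reference, 27.0 to 54.7 CPM in HFoleic and 25.6 to 39.6 CPM in HFepa. Without reference library 5 the call of miR-375-3p was lost in both and that of miR-184-3p held in both. Without reference libraries 4 and 5 together, miR-184-3p was called in HFepa vs. reference but not in HFoleic vs. reference. With the library-number term no miRNA of this list was called in either. Library 5, which set the upper end in reference, had the lowest miR-182-5p and miR-96-5p of its group. The only tested muscle miRNA, miR-133a-3p, was lower in both high-fat groups. The summed level of its list was 217.0 CPM in reference library 4 and at most 12.4 CPM in every other liver. Its calls were lost without library 4, that in HFoleic also without library 5, and both were lost with the library-number term. Of 5 red blood cell miRNAs 0 were called in either, with summed levels of 6390 to 15794 CPM in reference, 7290 to 11376 CPM in HFoleic and 6391 to 13039 CPM in HFepa, and miR-451a means of 781.3, 798.7 and 810.5 CPM. Of 5 hepatocyte miRNAs 0 were called in either, and miR-122-5p, the defining hepatocyte miRNA, was at 18690 ± 3692 CPM in reference, 18657 ± 2044 CPM in HFoleic and 18686 ± 2782 CPM in HFepa.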

How the data were processed

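Small RNA of 23 mouse livers was sequenced from a gel fraction, 1 library per mouse. The authors removed adapters with the FASTX-Toolkit and aligned and annotated reads with Bowtie in ncPRO-seq. The genome is called GRCm38.p6 and mm9 in the methods and mm10 in the labels, which also name bcl2fastq 2.17.1.14. The authors deposited raw counts for 1218 mature miRNAs, without coordinates, and for each library a signal, which is the count divided by 1 factor per library. The signal was used only to check the counts, and the deposited fold changes and p-values were not used. The sources differ on the RNA input. Counting errors and floors cover counting error only, since PCR reads carry no molecular identifiers.

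Of 1218 miRNAs, 386 passed filterByExpr by group and hold 99.98% of the counts. TMM factors, 1 fit of the 3 groups and the quasi-likelihood test of edgeR 4.0.16 in R 4.3.3 were used, with Benjamini-Hochberg adjustment. DEGseq was not run, and its formula was applied to pooled counts as an alternative. Log2 CPM used a prior count of 2 and count ratios a pseudocount of 0.5. Ratios and low members were tested by exact permutation over mice (12870 splits for 8 against 8) and correlations by 100000 permutations, with Python 3.11.15 and scipy 1.17.1. Biological replicates were mice, and within each group all pairs of libraries differed by more than sampling noise (chi-square per degree of freedom of at least 28.9). The fits were tested on simulated data first. Sequences are from RefSeq on GRCm38.p6, where all 6 members matched by name.

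Alternatives were DESeq2 1.42.0, limma 3.58.1 with quantile normalization, limma-voom with quality weights, library size or upper-quartile factors in place of TMM, a fit without a filter or with a minimum of 10 counts in each library, fits of the 2 groups alone, other call rules, pooled counts, the library number, other pseudocounts and each library left out. Leaving out libraries for miR-183-3p and for the spread within groups was added after the data were seen. The members, lists and tests were chosen with earlier results of these data known. Named beside the members were called miRNAs of the sterol and lipid list, both arms of miR-33, the 5 most alike miRNAs and defining markers. Among the other names, miR-429-3p, miR-141-3p, miR-184-3p and miR-133a-3p were given after their values were seen, as the calls of small lists, and miR-1271-5p because it shares a seed. Also after its values were seen, miR-34a-5p was named as a call without reference library 3.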

Additional observations from a re-analysis of the deposited data

Results flagged for a closer look

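Of 21 sets of values, each 1 quantity in 1 group, 7 had a library far from the others by Dixon's test at the 95% level, where chance flags about 1 in 20. Reference library 3 stood above the rest of its group in miR-183-5p (123 CPM), miR-96-5p (12.2 CPM) and miR-182-5p (3150 CPM). These 3 values come from 1 liver and from miRNAs that vary together. The ratio of miR-96-5p to miR-183-5p was far higher in reference library 2 (0.164) than in the rest of that group. In HFepa the ratio of miR-182-5p to miR-183-5p was high in library 22 (36.5). HFepa library 19 had a low ratio of miR-96-5p to miR-183-5p (0.0453) and a high ratio of miR-182-5p to miR-96-5p (389.9), and both values share its count of miR-96-5p. What set these livers apart was not tested.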

How the results depend on the processing

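With counts pooled within groups and an unadjusted p under 0.01, which takes no spread between mice, 2 members were called in HFoleic vs. reference, 2 in HFepa vs. reference and 3 in HFepa vs. HFoleic, beside 35.0%, 37.0% and 13.0% of all tested miRNAs. Under the other alternatives and with any 1 library left out the number of members called was 0.

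The number of all tested miRNAs called, 48 in HFoleic vs. reference and 61 in HFepa vs. reference, was over 1.5 times lower under several alternatives. In HFoleic vs. reference it was 25 with DESeq2, 10 with quantile normalization and limma, 31 with limma-voom, 29 with no filter, 7 with only these groups, 1 with the library-number term, 0 in libraries 1 to 11, 6 without reference libraries 4 and 5, 12 without reference library 5 and 24, 21 and 20 without HFoleic libraries 13, 14 and 15. In HFepa vs. reference it was 24 with quantile normalization and limma, 40 with only these groups, 0 with the term, 30 without reference libraries 4 and 5, 36 without reference library 5 and 38, 38 and 32 without HFepa libraries 16, 18 and 22. With pooled counts it was 135 and 143.

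For miR-183-5p in HFoleic vs. reference, 0.07, the log2 fold change was -0.05 with library size, -0.11 with limma-voom, -0.13 with pooled counts and -0.01 without reference libraries 4 and 5. With the library-number term, miR-183-5p and miR-96-5p were at -0.95 and -1.18 in HFoleic vs. reference, at -1.17 and -1.57 in HFepa vs. reference and at -0.22 and -0.39 in HFepa vs. HFoleic, where miR-182-5p was at -0.05. Within libraries 1 to 11 the first 2 were at -0.93 and -1.17. Within libraries 12 to 23, HFepa vs. HFoleic gave -0.22, -0.38 and -0.05. The mean log2 ratio of miR-96-5p to miR-183-5p turned to -0.08 in libraries 1 to 11 and to -0.18 in libraries 12 to 23, where that of miR-182-5p to miR-96-5p turned to 0.42. The cause of these turns was not tested.

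With 1 library left out, miR-183-5p in HFoleic vs. reference ranged from -0.12 to 0.26 and miR-96-5p in HFepa vs. HFoleic from -0.10 to 0.45. The mean log2 ratio of miR-182-5p to miR-183-5p ranged from -0.50 to -0.30 in HFoleic vs. reference, -0.47 to -0.28 in HFepa vs. reference and -0.06 to 0.16 in HFepa vs. HFoleic. In the same order, for miR-96-5p to miR-183-5p it ranged from 0.39 to 0.61, 0.52 to 0.88 and 0.00 to 0.41, and for miR-182-5p to miR-96-5p from -1.09 to -0.73, -1.17 to -0.88 and -0.29 to 0.13. The CPM difference of miR-183-3p ranged from -1.30 to -0.805, -0.844 to -0.227 and 0.251 to 0.78.

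At this depth miR-96-5p had a counting error of up to 26.7% in a library, and ratios of arms were not tested because no 3p arm reached the set minimum of a median of 10 counts in every group. No paired analysis was possible because the labels number the libraries through all groups and no number is shared between groups.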
